A study of Mus musculus with 12 samples.

Results

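Glycolysis and glucose uptake were followed through 10 genes, taken as the rows of Slc2a1, Hk1, Hk2, Pfkfb3, Aldoa, Pgk1, Eno1, Pkm, Ldha and Slc16a3 in the table of expected counts. These are 10 of 55414 genes listed, and all 10 were among the 15912 genes that passed the filter of more than 1 CPM (the count of a gene scaled to a common library size) in at least 2 libraries. The tissue was the inferior vena cava (IVC) of wild-type C57BL/6J mice aged 10 weeks, collected on postoperative day 7, with 1 mouse per library and no pooling. In 6 mice an aortocaval arteriovenous fistula (AVF) was made by needle puncture, which sends arterial blood through the vein, and 6 sham-operated mice had the same operation without the puncture. Each group held 3 males (AVF samples 04, 05 and 06, sham samples 16, 17 and 18) and 3 females (AVF samples 07, 09 and 11, sham samples 19, 22 and 23). The comparison asks whether transcripts of glucose uptake and glycolysis changed with those of oxidative metabolism in the early fistula vein.

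Glycolysis splits glucose into pyruvate in the cytosol. Glucose enters the cell through transporters of the Slc2a family, is trapped by hexokinases and committed at the phosphofructokinase step, which the products of Pfkfb genes speed up. Pyruvate then either enters the mitochondria, where the citrate cycle and the respiratory chain burn it, or is turned into lactate and leaves through monocarboxylate transporters. Brown fat, which lies around large veins, is rich in mitochondria and also uses much glucose. Several glycolysis genes are known targets of hypoxia-inducible factors.

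The 12 libraries held 15177881 to 22717423 counts. In AVF sample 07, 46.0% of counts came from ribosomal RNA genes, against 2.39% to 12.6% elsewhere, and 3 counts were 0.127 to 0.323 normalized CPM. Markers of the vein wall were present in every library, with summed levels of 1610 to 2760 normalized CPM for 6 endothelial genes and 2270 to 4840 for 6 smooth muscle genes, none of which passed the test between AVF and sham. RNA of neighbouring tissue differed between libraries. Summed over 10 brown fat markers, the level was 84.9 to 429 normalized CPM in AVF and 201 to 2080 in sham, highest in sham samples 19, 22 and 16 and lowest among the shams in samples 17 and 18. Summed muscle markers reached 1751 normalized CPM in sham sample 23 and 321 in sham sample 19, against 81.0 at most elsewhere. Summed hepatocyte markers were at 2577 in AVF sample 05 and 7694 in AVF sample 09, the libraries that the study set apart, and at 4.34 at most in the others. The members, the lists with most calls and the genes named from them are therefore also given without these libraries, after the results over all libraries. The part of the neighbouring tissues in them was not tested.

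Stretches of 250 bases before the transcription start are shown, because the windows of Pgk1, Pfkfb3 and Slc2a1 were the ones among the members that touched no annotated exon, and because the first pair of genes fell in AVF while the last did not pass the test. They were read from GRCm39 at the start of the canonical transcript of GENCODE M39. Capitals mark ACGTG and GCGTG, the short cores of the element that hypoxia-inducible factors bind, on either strand.
Pgk1, chrX:105230456-105230705, plus strand: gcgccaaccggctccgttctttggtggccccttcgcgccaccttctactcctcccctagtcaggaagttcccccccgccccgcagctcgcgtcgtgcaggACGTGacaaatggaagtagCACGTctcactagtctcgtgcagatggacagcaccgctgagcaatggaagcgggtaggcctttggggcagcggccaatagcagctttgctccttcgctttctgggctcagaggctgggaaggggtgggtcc
Pfkfb3, chr2:11507418-11507667, minus strand: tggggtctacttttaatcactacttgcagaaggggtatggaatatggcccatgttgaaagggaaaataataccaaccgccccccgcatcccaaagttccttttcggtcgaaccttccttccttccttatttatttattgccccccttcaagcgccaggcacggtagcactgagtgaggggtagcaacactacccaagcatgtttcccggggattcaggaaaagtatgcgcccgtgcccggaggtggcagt
Slc2a1, chr4:118965658-118965907, plus strand: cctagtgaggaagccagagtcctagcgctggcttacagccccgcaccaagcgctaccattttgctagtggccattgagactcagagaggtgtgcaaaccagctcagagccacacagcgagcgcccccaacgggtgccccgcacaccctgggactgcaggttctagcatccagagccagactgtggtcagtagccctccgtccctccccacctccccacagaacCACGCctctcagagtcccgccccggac
The Pgk1 window held 2 such matches, the nearer of them starting 131 bases before the transcription start. The Slc2a1 window held 1, starting 27 bases before it, and the Pfkfb3 window held 0. The canonical start of Pfkfb3 lies inside the annotated gene, chr2:11476244-11558888. Stretches before starts of Pfkfb3 farther upstream were not searched. At least 1 match lay in the windows of 8 of the 10 members, and in 50.3% of the windows of 14375 tested protein-coding genes. ACGTG alone was found in 4 of 10 members and 20.1% of all windows. The longer CACGTG, which contains ACGTG, was found in 1 member, Ldha, and in 7.35% of all windows. A match is a run of letters and not a bound site.

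Of the 10 genes, 5 fell in AVF and 0 rose (edgeR's quasi-likelihood test, adjusted p under 0.05 over all 15912 genes), where 5.13% of all tested genes fell and 8.63% rose. The genes that fell were Hk2, Pfkfb3, Aldoa, Pgk1 and Pkm, which run from the trapping of glucose to the last step of glycolysis. Hk2 and Pfkfb3 also passed the 2-fold threshold of differentially expressed genes (DEG), as did 1.4% of all genes in the downward direction. The log2 fold change was negative for 9 of 10 members, against 51.9% of all genes, with a median of -0.61 against -0.01. No member separated the groups fully, and for most of them sham samples 17 and 18 lay at or near AVF levels. Other tests called these 5 and Eno1 lower, DESeq2 with 9.0% of all genes lower and the exact test of edgeR with 5.07%. In bulk tissue, fewer cells of a type and less RNA per cell cannot be told apart.

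**Figure D1:**
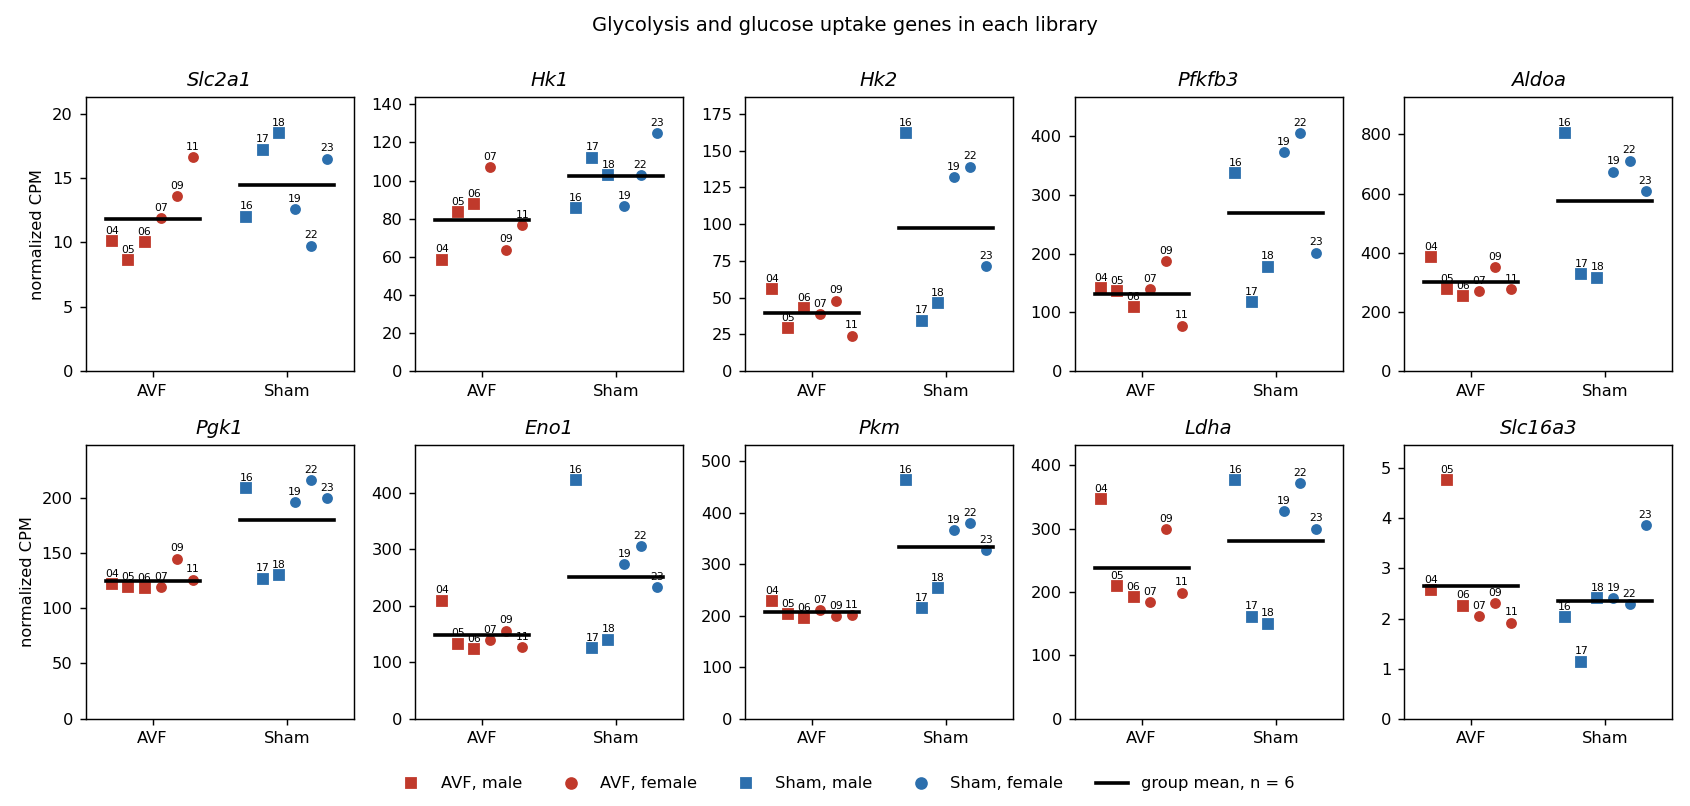
Normalized CPM (vertical axes, from 0) of the 10 genes in each AVF and sham library, labelled by sample number, with squares for males, circles for females and a bar at the mean of each group (n = 6). For Aldoa, Pgk1, Eno1 and Pkm, sham samples 16, 19, 22 and 23 sit above all 6 AVF samples, while sham samples 17 and 18 sit close to the AVF samples.

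Levels were compared between genes per length of the canonical transcript. In sham, Aldoa was the highest with 380 ± 136 normalized CPM per kilobase (mean ± SD, n = 6), followed by Ldha with 177 ± 63.9, Pkm with 136 ± 36.7, Eno1 with 109 ± 48.3 and Pgk1 with 98.6 ± 22.0. Within a library, Aldoa stood above Ldha in 6 of 6 shams, by 2.01 to 2.25 times, and Pkm above Eno1 in 6 of 6, by 1.03 to 1.69 times. Ldha was above Pkm in 5 of 6 and Eno1 above Pgk1 in 3 of 6, so the order of those pairs was not the same in every mouse. Pfkfb3 with 47.6 ± 21.0, Hk1 with 23.9 ± 3.55 and Hk2 with 12.5 ± 6.88 were lower. Pgk1 stood above Pfkfb3 in 6 of 6 shams, while Pfkfb3 stood above Hk1 and Hk1 above Hk2 in 5 of 6 each. Slc2a1 with 3.25 ± 0.780 and Slc16a3 with 0.501 ± 0.187 were the lowest, and their ranges overlapped neither each other nor those of the genes above them. Slc16a3 had only 19 to 98 counts per library, and every other member had at least 110.

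Glucose uptake comes first in the pathway. Slc2a1 encodes GLUT1, the transporter behind basal glucose uptake in many cells. Its lowest, median and highest levels were 8.61, 11.0 and 16.6 normalized CPM in AVF and 9.74, 14.5 and 18.5 in sham, so the groups overlapped almost throughout. The log2 fold change was -0.29 (SE 0.19, adjusted p = 0.324). Unlike most other members, Slc2a1 was highest in sham samples 17 and 18, at 17.2 and 18.5, and lowest among the shams in sample 22, at 9.74.

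Hexokinases phosphorylate glucose and keep it inside the cell. Hk1, the form found in most tissues, had levels of 58.5, 80.1 and 107 normalized CPM in AVF and 85.4, 103 and 125 in sham (lowest, median and highest). In AVF, 4 of 6 samples lay below every sham, but samples 06 and 07 lay among the shams, at 87.7 and 107. The log2 fold change of -0.37 (SE 0.15) did not pass the adjusted test (adjusted p = 0.103). Hk2, the inducible form of muscle and fat, had levels of 24.1, 40.7 and 55.8 in AVF and 34.3, 102 and 162 in sham. Its mean was 39.7 ± 11.8 in AVF and 97.6 ± 53.6 in sham (SD, n = 6 each), a log2 fold change of -1.30 (SE 0.37, adjusted p = 0.0354). Sham samples 16, 19, 22 and 23 lay above all AVF samples, at 71.6 to 162, and sham samples 17 and 18 lay within the AVF range, at 34.3 and 46.3. The log2 ratio of Hk2 to Hk1 within a library was -1.02 ± 0.65 in AVF and -0.28 ± 1.07 in sham (SD, n = 6 each), which the exact permutation test did not separate (p = 0.182, adjusted p = 0.303 over 5 ratios).

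Pfkfb3 encodes the enzyme that makes fructose 2,6-bisphosphate, the strongest activator of phosphofructokinase, and is known as the glycolytic switch of endothelial cells. Its levels were 77.4, 138 and 187 normalized CPM in AVF and 117, 270 and 406 in sham (lowest, median and highest). The mean was 132 ± 36.4 in AVF and 269 ± 118 in sham, and the log2 fold change was -1.03 (SE 0.30, adjusted p = 0.0379). Sham samples 17 and 18 were at 117 and 178, inside the AVF range. The related genes of the same family did not pass the test, with log2 fold changes of -0.06 for Pfkfb1, 0.14 for Pfkfb2 and 0.33 for Pfkfb4 (adjusted p = 0.912, 0.477 and 0.223).

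Past the split of the sugar, the pathway held 3 of the 5 genes that fell. Aldoa, the aldolase that splits the 6-carbon sugar, had levels of 253, 277 and 386 normalized CPM in AVF and 316, 641 and 805 in sham (lowest, median and highest). Its log2 fold change was -0.92 (SE 0.23, adjusted p = 0.0224). Pgk1, which makes the first ATP of the pathway, was at 118, 120 and 145 in AVF and 127, 198 and 216 in sham, with a log2 fold change of -0.53 (SE 0.14, adjusted p = 0.0268). All AVF samples but sample 09 lay below every sham. Pkm, the pyruvate kinase of muscle and most other tissues, was at 196, 202 and 228 normalized CPM in AVF and 215, 347 and 463 in sham. Its mean was 206 ± 11.8 in AVF and 334 ± 89.9 in sham, and the log2 fold change was -0.70 (SE 0.16, adjusted p = 0.0144). In Pkm, 5 AVF samples lay below every sham and 5 sham samples above every AVF, and the overlap came from AVF sample 04 at 228 and sham sample 17 at 215. The counts are per gene, so the M1 and M2 forms of Pkm were not separated.

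Eno1, the enolase of most tissues, had levels of 123, 136 and 209 normalized CPM in AVF and 125, 254 and 422 in sham (lowest, median and highest). Its log2 fold change of -0.76 was larger than that of Pgk1 or Pkm, but its SE of 0.27 was larger too, and it missed the threshold (adjusted p = 0.0756). It passed in DESeq2 (adjusted p = 0.0261) and in the exact test of edgeR (adjusted p = 0.0256). Near-identical copies held 3.58% to 5.6% of the summed counts of Eno1 and its 3 copies and 3.26% to 5.67% for Pgk1, chiefly Gm4735 and Gm5537, and at most 0.867% for Pkm, Ldha and Aldoa, so reads shared with such copies are a small uncertainty for Eno1 and Pgk1.

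**Figure D2:**
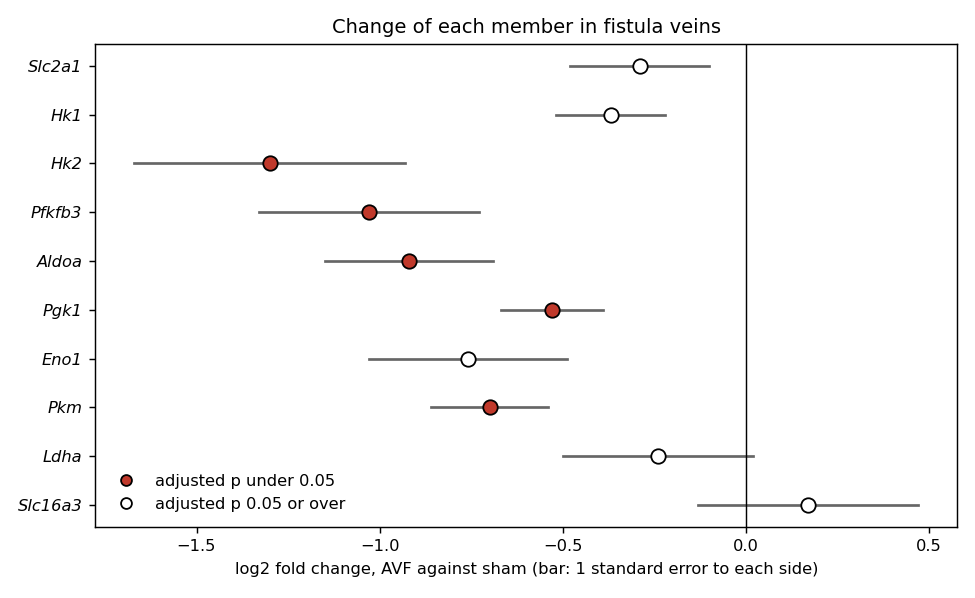
Log2 fold change of AVF against sham (horizontal axis) for the 10 genes, with bars of 1 standard error to each side and filled points where the adjusted p was under 0.05. Hk2 at -1.30 and Pfkfb3 at -1.03 lie farthest to the left, and Slc16a3 at 0.17 is the only member to the right of 0.

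Pyruvate is turned into lactate by lactate dehydrogenase, whose A subunit is encoded by Ldha and whose B subunit, common in oxidative tissue, by Ldhb. Ldha had levels of 184, 204 and 346 normalized CPM in AVF and 150, 314 and 376 in sham (lowest, median and highest), and the log2 fold change was -0.24 (SE 0.26, adjusted p = 0.561). The 2 lowest values of the 12 belonged to sham samples 18 and 17, at 150 and 161. Ldhb was at 21.3, 22.9 and 32.6 in AVF and 32.0, 70.7 and 94.7 in sham, and fell with a log2 fold change of -1.37 (SE 0.24, adjusted p = 0.00367). Only sham sample 17, at 32.0, reached down to the highest AVF sample, at 32.6.

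The log2 ratio of Ldha to Ldhb within a library was 2.95 to 3.39 in AVF (mean 3.20 ± 0.17) and 1.78 to 2.31 in sham (mean 2.11 ± 0.23). All 6 AVF libraries lay above all 6 sham libraries, a difference of 1.09 (two-sided exact permutation test, p = 0.00216, the smallest that 6 against 6 can give, adjusted p = 0.0108 over 5 ratios). The scaling between libraries enters this ratio only through the 0.5 CPM added to each gene. Without AVF samples 05 and 09 the difference was 1.04 (adjusted p = 0.0476), without sham samples 19 and 23 it was 1.03 (adjusted p = 0.0476), and without sham samples 16, 19 and 22 it was 1.09, where the exact permutation test of 6 libraries against 3 can give no p below 0.0238 (adjusted p = 0.119). Sham samples 17 and 18, whose brown fat markers summed to 201 and 346 normalized CPM, had ratios of 2.31 and 1.86. These sums lay inside the AVF range of 84.9 to 429, but single markers differed. In both shams Cox7a1 (7.44 and 11.1) and Kcnk3 (82.6 and 112) lay above every AVF sample, and Dio2 (13.4 and 16.4) below. Cidea and Fabp3 lay above every AVF sample in sample 18 only, and the other markers lay inside the AVF range. AVF sample 04, with brown fat markers at 342, had a ratio of 3.39. Among the shams, Ldhb itself was lowest in samples 17 and 18, at 32.0 and 41.0 normalized CPM. The part of brown fat RNA in this ratio was not tested. Of the 5 ratios compared, that of Ldha to Ldhb was the only one to pass.

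**Figure D3:**
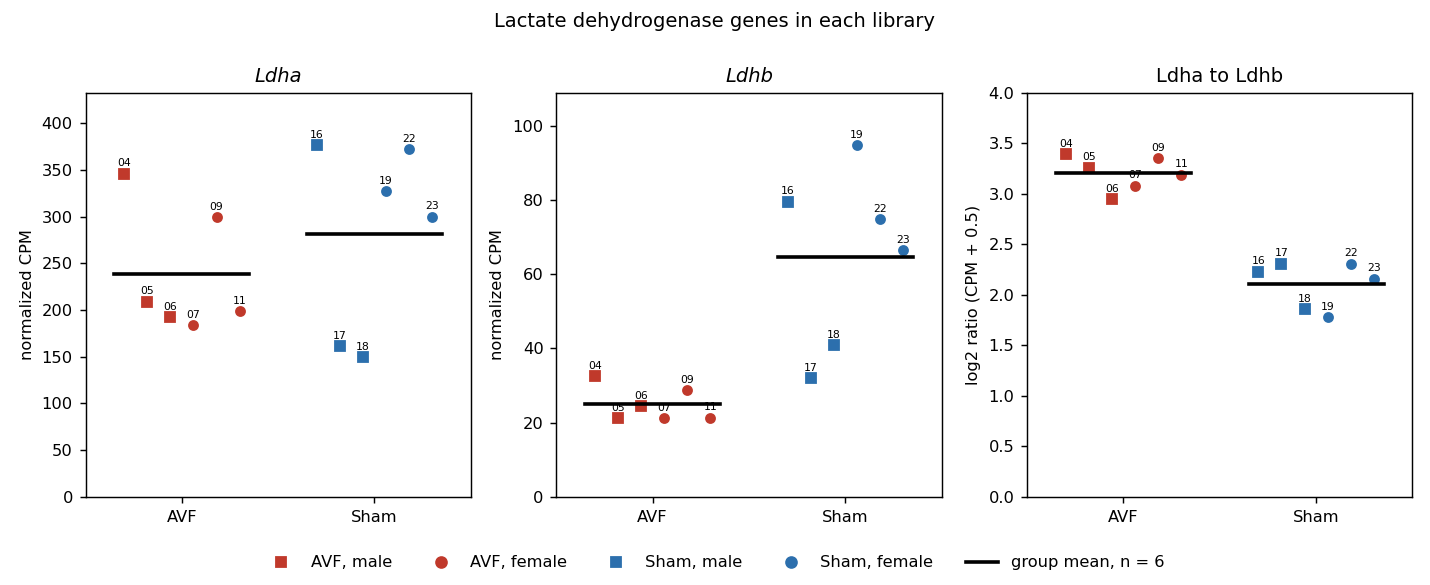
Normalized CPM of Ldha (left) and Ldhb (middle) and the log2 ratio of Ldha to Ldhb (right, with 0.5 CPM added to each) in each library, labelled by sample number, with a bar at the mean of each group (n = 6). Ldha overlaps between the groups, Ldhb meets only at sham sample 17 and AVF sample 04, and the ratio is above 2.9 in AVF and below 2.4 in sham.

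Lactate leaves through monocarboxylate transporters. Slc16a3, which encodes MCT4, the exporter of highly glycolytic cells, was at 1.92, 2.28 and 4.76 normalized CPM in AVF and 1.14, 2.34 and 3.87 in sham (lowest, median and highest). Its log2 fold change was 0.17 (SE 0.30, adjusted p = 0.737), the only positive value among the members, and without AVF samples 05 and 09 it was -0.10. Slc16a1, which encodes MCT1 and carries lactate both ways, was at 38.3, 51.7 and 78.3 in AVF and 47.7, 95.6 and 167 in sham, with a log2 fold change of -0.83 that did not pass (SE 0.32, adjusted p = 0.0944). The log2 ratio of Slc16a3 to Slc16a1 was -4.20 ± 0.57 in AVF and -5.06 ± 0.80 in sham (exact permutation test, p = 0.0606, adjusted p = 0.152). Among 4 tested monocarboxylate transporters and chaperones other than Slc16a3, Slc16a1 included, 0 passed the edgeR test, and Emb, the chaperone embigin, reached a log2 fold change of 0.58 (adjusted p = 0.0807).

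The other genes around the members behaved in part alike. Of 18 tested other glycolytic enzymes, 5 fell and 2 rose, with a median log2 fold change of -0.59. Besides Ldhb, the fallers were Gpi1, Pfkm, Pfkp and Gapdh. Gpi1, the isomerase after hexokinase, was at 112 to 126 normalized CPM in AVF and 141 to 235 in sham, with a log2 fold change of -0.65 (SE 0.12, adjusted p = 0.00506). Its groups did not overlap, which held for 1.51% of all genes in that direction. Sham samples 17 and 18, at 141 and 144, lay above every AVF sample. The log2 fold change was -0.97 for Pfkm, the muscle phosphofructokinase, -0.44 for Pfkp and -0.59 for Gapdh (adjusted p = 0.0252, 0.0452 and 0.0477). Pklr, the pyruvate kinase of liver and red blood cells, was among the 2 that rose (adjusted p = 0.0298). It was at 7.39 and 8.98 normalized CPM in AVF samples 05 and 09 and at 0.0954 at most elsewhere, and those 2 libraries were the ones that held hepatocyte markers.

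Eno3, the muscle enolase, was highest in 2 sham libraries. It was at 69.4 normalized CPM in sham sample 23 and 9.03 in sham sample 19, which had the highest muscle markers, and at 1.31 to 5.31 in all others. Its log2 fold change of -2.22 (adjusted p = 0.11) turned to 0.34 without those 2 shams. The part of muscle RNA in Eno3 was not tested. The log2 ratio of Eno1 to Eno3 was 5.42 ± 0.64 in AVF and 5.22 ± 1.95 in sham (exact permutation test, p = 0.857, adjusted p = 0.857).

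Among 10 other glucose transporters, 2 fell and 1 rose. Slc2a3, which encodes the high-affinity transporter GLUT3, was at 16.2, 22.6 and 32.5 normalized CPM in AVF and 23.8, 47.8 and 49.7 in sham (lowest, median and highest), with a log2 fold change of -0.89 (SE 0.20, adjusted p = 0.014). Sham samples 17 and 18 were high for this gene, at 46.2 and 42.6, and sham sample 19 was the low one. Slc2a4, which encodes the insulin-responsive GLUT4 of fat and muscle, was at 29.9, 41.0 and 59.3 in AVF and 39.5, 84.5 and 134 in sham, with a log2 fold change of -0.98 (SE 0.29, adjusted p = 0.0421). The log2 ratio of Slc2a1 to Slc2a4 was -1.79 ± 0.56 in AVF and -2.38 ± 1.05 in sham (exact permutation test, p = 0.255, adjusted p = 0.319). Slc2a2, the liver transporter, was the gene that rose, with 19.4 and 35.9 normalized CPM in AVF samples 05 and 09 and 0.323 at most elsewhere.

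Of 23 regulators of glycolysis, 4 fell and 3 rose, with a median log2 fold change of -0.22. Hif1a, the oxygen-regulated factor that induces many glycolysis genes, was at 157 to 215 normalized CPM in AVF and 110 to 134 in sham, with a log2 fold change of 0.61 (SE 0.09, adjusted p = 0.00129). Its groups did not overlap, as for 4.55% of all genes in that direction. Vhl, which marks that factor for breakdown, rose with a log2 fold change of 0.32 (adjusted p = 0.048), and Egln1, an oxygen sensor that does the same, fell with -0.55 (adjusted p = 0.0187). Transcript levels say nothing of the protein, which is controlled mainly by breakdown. Pdk4 and Pdk2, kinases that close the gate of pyruvate into the mitochondria, fell with log2 fold changes of -1.71 and -0.76, while Pdk3 rose with 0.58 (adjusted p = 0.0151, 0.0252 and 0.0161). Tigar, which opposes Pfkfb3 by breaking down fructose 2,6-bisphosphate, fell with -0.44 (adjusted p = 0.0179). Of 14 hypoxia-induced genes outside glycolysis, 3 rose and 1 fell, with a median of -0.01. Hmox1, the heme oxygenase, rose with a log2 fold change of 0.93 (adjusted p = 0.00371), and Ndrg1 fell with -0.42 (adjusted p = 0.0429).

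The branches off glycolysis gave few calls. In the pentose phosphate pathway 0 of 7 genes passed the edgeR test, with a median of -0.38, and Tkt, the transketolase, stood at a log2 fold change of -0.96 (adjusted p = 0.107). In glycogen metabolism 2 of 15 fell and 1 rose, with a median of -0.38. Ppp1r3c, which targets a phosphatase to glycogen, fell with -1.06 (adjusted p = 0.0273), and Pgm2 rose with 0.42 (adjusted p = 0.0497). In the serine branch 0 of 5 passed, with a median of 0.14, and Psat1 had 0.52 (adjusted p = 0.0617). Of 6 gluconeogenesis genes, G6pc3 fell with -0.48 (adjusted p = 0.0367), and G6pc1 and Fbp1 rose, both again through the libraries with hepatocyte markers.

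Oxidative metabolism stood beside these values as follows. In the nuclear-encoded subunits of the respiratory chain and ATP synthase 46 of 80 genes fell and 0 rose, with a median log2 fold change of -0.66, close to the -0.61 of the glycolysis members. In the citrate cycle 12 of 17 fell with a median of -0.83, in fatty acid beta-oxidation 5 of 20 with -0.77, and among the 13 mitochondrially encoded subunits 3 with -0.70. Pyruvate entry into mitochondria had a median of -0.82, but 0 of its 8 genes passed, and Dlat, a subunit of pyruvate dehydrogenase, had -0.87 (adjusted p = 0.0672). Named examples are Sucla2 and Idh3b of the citrate cycle, with -1.26 and -1.10 (adjusted p = 0.0132 and 0.0138), Cpt1b, which lets fatty acids into mitochondria, and Acaa2, with -2.35 and -1.37 (adjusted p = 0.00788 and 0.0108), and Ndufb10 of complex I and mt-Nd6, with -0.62 and -0.85 (adjusted p = 0.0173 and 0.0125). Cox7a1, with -2.82 (adjusted p = 0.00326), is also a brown fat marker.

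**Figure D4:**
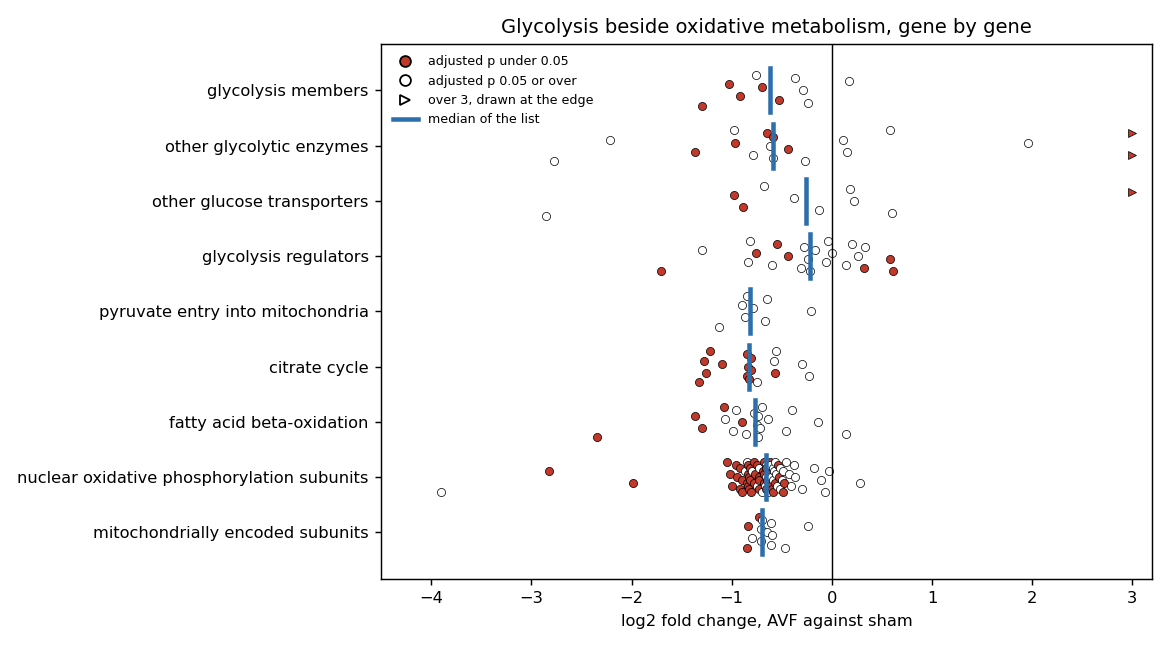
Log2 fold change of AVF against sham (horizontal axis) for each tested gene of 9 lists, with filled points for an adjusted p under 0.05 and a vertical bar at the median of the list. The 10 glycolysis members have a median of -0.61 and the 80 nuclear respiratory subunits one of -0.66, and the points at the right edge include Pklr and Slc2a2.

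Within a library, the mean log2 CPM of the 10 members was 5.99 to 6.34 in AVF and 6.11 to 7.07 in sham. That of the 80 nuclear respiratory subunits was 5.30 to 5.88 in AVF and 5.59 to 6.66 in sham. The difference of these means, members minus subunits, was 0.45 to 0.85 in AVF (mean 0.65 ± 0.14) and 0.26 to 0.73 in sham (mean 0.55 ± 0.17), so the groups overlapped. Against the 17 citrate cycle genes the difference was -0.61 to -0.18 in AVF (mean -0.38 ± 0.17) and -0.88 to -0.43 in sham (mean -0.61 ± 0.18), also overlapping. Sham sample 19, which had the highest brown fat markers, gave the lowest value of both differences, at 0.26 and -0.88.

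Brown fat markers moved with the members across libraries. Sham samples 16, 19 and 22, with summed brown fat markers of 1108, 2080 and 1345 normalized CPM, had the highest mean log2 CPM of the members, at 7.07, 6.93 and 6.99, and sham sample 23, with 673, came next at 6.84. Sham samples 17 and 18, with 201 and 346, were at 6.11 and 6.32, inside or next to the AVF range. In AVF, sample 11 had the lowest marker sum, 84.9, and the lowest mean of the members, 5.99. Of the 10 markers, 6 fell in AVF and 0 rose. Cidea, a lipid droplet protein of brown fat, was at 5.58 to 59.8 normalized CPM in AVF and 42.8 to 200 in sham (log2 fold change -2.21, adjusted p = 0.0159), and Ucp1, the uncoupling protein that defines brown fat, at 1.69 to 121 and 22.9 to 1090 (log2 fold change -2.83, adjusted p = 0.079). None of 8 white adipocyte markers passed. Whether brown fat RNA accounts for the lower members was not tested. Macrophage, fibroblast and dividing cell markers moved the other way, with positive log2 fold changes for all of them. Of these, 7 of 8, 4 of 6 and 6 of 6 passed the test as higher in AVF. Their part was not tested either. Neuron and Schwann cell markers had negative log2 fold changes in 8 of 8 and 5 of 6 genes, with medians of -1.13 and -0.71. Of these, only 1 neuron marker (Elavl4, adjusted p = 0.0416) and 0 Schwann cell markers passed the test. Summed over 8 neuron markers, the level was 115 to 642 normalized CPM in AVF and 267 to 1066 in sham. It was lowest in AVF samples 04 and 09, at 115 and 249, which also had the lowest Hk1, at 58.5 and 63.7. Sham sample 19, lowest among the shams at 267, was the sham with the lowest Slc2a3, at 23.8, and AVF sample 07, highest in AVF at 642, had the highest Hk1 and Slc2a3 in AVF, at 107 and 32.5. The part of nerve RNA in Hk1 and Slc2a3 was not tested.

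**Figure D5:**
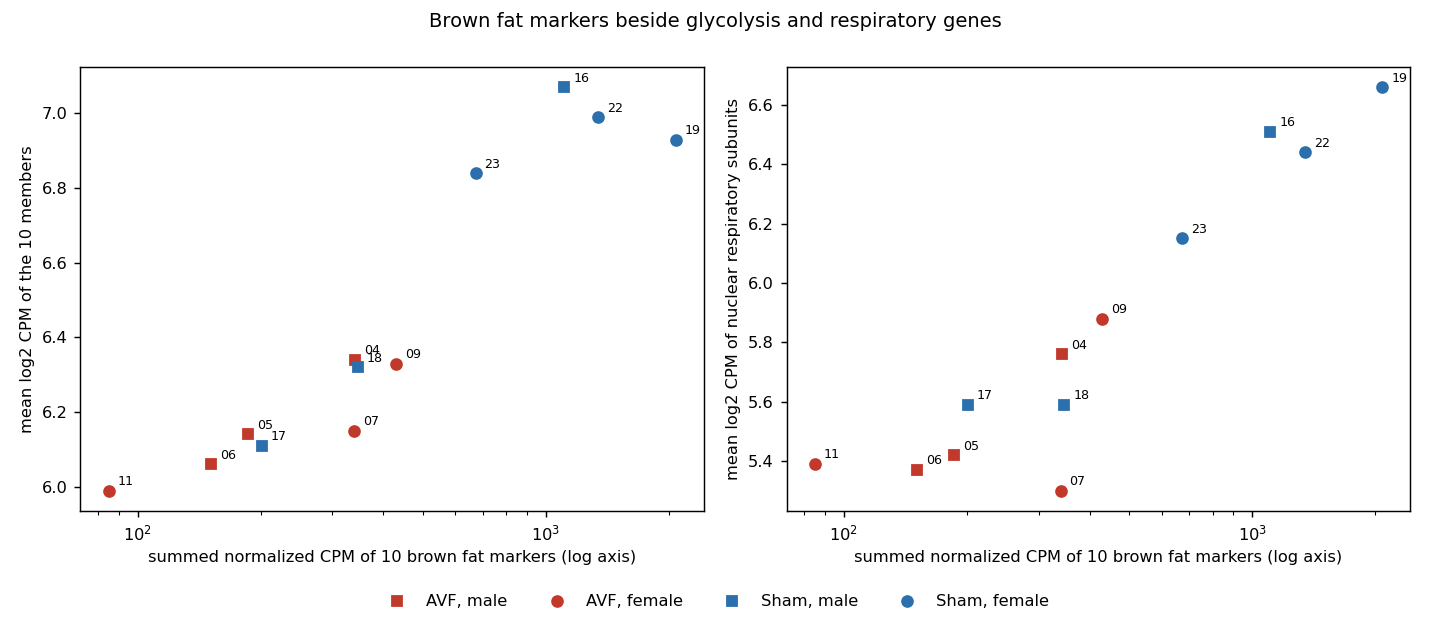
Mean log2 CPM of the 10 glycolysis members (left) and of 80 nuclear respiratory subunits (right) in each library against the summed normalized CPM of 10 brown fat markers on a log axis, labelled by sample number. In both panels sham samples 16, 19, 22 and 23 lie at the top right, while sham samples 17 and 18 lie among the AVF samples. Cox7a1 and Cox8b count both as brown fat markers and as respiratory subunits.

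The calls on the members were lost when a few libraries were left out. Without sham samples 16, 19 and 22, 0 of 10 members passed, with 3 at an unadjusted p under 0.05 and 1.18% of all genes called lower, and the log2 fold changes shrank to -0.35 for Hk2, -0.33 for Pfkfb3, -0.47 for Aldoa, -0.29 for Pgk1 and -0.37 for Pkm. Ldha turned to 0.22. These shams also had the highest means of the members, so leaving them out brings the groups closer by construction, and the smaller values say nothing of brown fat as a cause. Without the shams of high muscle markers, samples 19 and 23, 0 members passed, with 6 at an unadjusted p under 0.05 and 1.72% of all genes called lower, and the values stayed at -1.26, -0.97, -0.82, -0.44 and -0.65 in the same order. Without AVF samples 05 and 09, 0 members passed, with 6 at an unadjusted p under 0.05 and 2.05% of all genes called lower, and the same values were -1.28, -1.21, -0.95, -0.57 and -0.68. Fewer samples also widen the error of these fits. Leaving out each library in turn, Pkm passed in 12 of 12 fits and Aldoa in 11, failing only without sham sample 22 (adjusted p = 0.0548). Hk2 and Pgk1 passed in 5 and Pfkfb3 in 4. The number of members lower was 1 without sham sample 22, 2 without sample 05, 06, 11 or 16, 3 without sample 07 or 19, and 6 without sham sample 17 or 18. Over all genes, 1330 (without sham sample 22) to 2546 passed in either direction in these fits, against 2190 with all libraries.

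The lists of oxidative genes moved with the same libraries. Without AVF samples 05 and 09, without sham samples 16, 19 and 22, and without sham samples 19 and 23, the 46 nuclear respiratory subunits that were lower became 11, 0 and 1, with medians of -0.72, -0.24 and -0.53. With each library left out in turn they were 4 (without sham sample 22) to 65 (without sham sample 17). In the citrate cycle the 12 lower genes became 2, 0 and 0, with medians of -0.88, -0.34 and -0.73, and 4 to 16 with each library left out, at the ends again without samples 22 and 17. In beta-oxidation the 5 lower genes became 2, 0 and 2, with medians of -0.88, -0.25 and -0.65, and 2 to 16 with each library left out, and the 3 mitochondrially encoded subunits became 5, 0 and 0, and 1 to 10. The 5 lower genes among other glycolytic enzymes became 2, 1 and 3, and the 4 lower regulators 4, 0 and 1.

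The other genes differed in how far they rested on the same libraries. Slc2a3 and Hif1a passed in each of those 3 sets, and without sham samples 16, 19 and 22 their log2 fold changes were -0.97 and 0.55 (adjusted p = 0.0298 and 0.0404), near the -0.89 and 0.61 of all libraries. Ldhb and Gpi1 passed without AVF samples 05 and 09 and without sham samples 19 and 23, but not without sham samples 16, 19 and 22, where their values were -0.90 and -0.44 (adjusted p = 0.0612 and 0.0658). Slc2a4 passed in none of the 3 sets and moved to -0.28 without sham samples 16, 19 and 22 (adjusted p = 0.537). Sucla2 and Idh3b moved to -0.65 and -0.58 there (adjusted p = 0.14 and 0.172), and Pdk4 to -0.78 (adjusted p = 0.101). Pklr, Slc2a2, G6pc1 and Fbp1 were not high enough to be tested without AVF samples 05 and 09.

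Of the regulators, Pdk3 and Tigar passed without AVF samples 05 and 09 but not without sham samples 16, 19 and 22 (adjusted p = 0.155 and 0.124) or without sham samples 19 and 23 (0.061 and 0.0699), while their log2 fold changes stayed at 0.48 to 0.68 and -0.45 to -0.41. Pdk2 passed without AVF samples 05 and 09 (adjusted p = 0.0341) and missed in the other sets (0.251 and 0.101). Egln1 and Vhl passed in none of the 3 sets (lowest adjusted p = 0.0636 and 0.149). Hmox1 stayed at 0.95 to 0.98 and missed only without sham samples 16, 19 and 22 (adjusted p = 0.0554), and Ndrg1 passed only there, with -0.58 (adjusted p = 0.0279). Of the glycolytic enzymes, Pfkm missed without AVF samples 05 and 09 (adjusted p = 0.0847) and passed in the other sets (0.0491 and 0.049), and Pfkp and Gapdh passed in none (lowest 0.0712 and 0.106). In the branches, G6pc3 and Pgm2 passed in none (lowest 0.0708 and 0.119), and Ppp1r3c passed only without AVF samples 05 and 09, with -1.34 (adjusted p = 0.0192). Each of the other oxidative genes named, Cpt1b, Acaa2, Cox7a1, Ndufb10 and mt-Nd6, passed without AVF samples 05 and 09 and missed without sham samples 16, 19 and 22, and without sham samples 19 and 23 the last pair missed too (adjusted p = 0.0951 and 0.0572). Adjusted p here are from edgeR.

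Within groups, the members fell into a block and 3 that stood apart. With the mean of each group taken away, the log2 CPM of Hk2, Pfkfb3, Aldoa, Pgk1, Eno1, Pkm and Ldha correlated across the 12 libraries with Pearson's r of 0.768 to 0.978 over their 21 pairs. Pairs that join any of these to Slc2a1, Hk1 or Slc16a3 had r of -0.68 to 0.326, and 14 of 21 were negative. These values are a description, and the libraries share tissue mix and depth. The gene most like Hk2 among all tested was Cs, the citrate synthase (r = 0.978), and the one most like Pfkfb3 was Esrra, a receptor that governs mitochondrial genes (r = 0.962). Aldoa and Ldha were each other's nearest gene (r = 0.978), Pkm was nearest to Eno1 (0.964), Eno1 to Slc2a5, a fructose transporter (0.982), and Pgk1 to Mrpl16, a mitochondrial ribosomal protein (0.951). Slc2a5 was low, at 0.0937 to 1.37 normalized CPM in AVF and 0.0423 to 11.7 in sham, with as few as 1 count in a library. Slc2a1 was nearest to Tceal8 (0.94), Hk1 to Apc2 (0.962) and Slc16a3 to Nprl3 (0.895).

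The sexes were compared because the study operated on both. In the test of whether the operation acted differently in the sexes, 0 of 10 members passed in edgeR and 0 in DESeq2, as did 0.0% and 0.0251% of all genes, and 2 members had an unadjusted p under 0.05 in edgeR, against 5.11% of all genes. The largest such differences, female minus male, were -1.22 for Slc16a3 (SE 0.53, adjusted p = 0.931) and 0.85 for Slc2a1 (SE 0.32, adjusted p = 0.931), with unadjusted p = 0.0423 and 0.0208. For Slc2a1 the log2 fold change was 0.12 in females and -0.73 in males, and for Slc16a3 -0.45 and 0.78. Between female and male AVF, 0 members passed in edgeR and 0 in DESeq2, as did 0.0314% and 0.308% of all genes. The unadjusted p was under 0.05 for 1 member and for 4.73% of all genes. The members that fell over both sexes had negative log2 fold changes in each. In females they were -1.63 for Hk2, -1.28 for Pfkfb3, -1.15 for Aldoa, -0.65 for Pgk1 and -0.82 for Pkm, and in males -0.93, -0.71, -0.66, -0.38 and -0.57. The shams nearest to AVF levels, samples 17 and 18, were both male. Summed brown fat markers were 1108, 201 and 346 normalized CPM in male shams 16, 17 and 18. In female shams 19, 22 and 23 they were 2081, 1345 and 673. The part of tissue mix in the values by sex was not tested. With 3 mice against 3, 0 members passed in either sex (lowest adjusted p = 0.0565 in females and 0.157 in males), where 4.92% and 0.924% of all genes did, and 6 and 3 members had an unadjusted p under 0.05, against 24.8% and 16.8% of all genes.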

How the data were processed

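Poly(A) RNA of the IVC was sequenced in paired ends. Per the labels and the text of the study, reads were trimmed (PRINSEQ, Trimmomatic 0.39) and mapped with STAR to the GRCm39 genome using Ensembl genes. The expected counts that the authors deposited came from RSEM 1.3.3, with strand used in counting and no scaling between libraries. The submitters' processing notes name STAR 2.7.7a. Names came from GENCODE M39 (54749 of 55414 identifiers), and 665 had no match.

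Counts were filtered at more than 1 CPM in at least 2 libraries, rounded, scaled by TMM and tested with edgeR 4.0.16 (R 4.3.3, limma 3.58.1), with Benjamini-Hochberg adjustment over all genes. SE is the log2 fold change over the root of F. Ratios used CPM plus 0.5 and exact permutation tests (SciPy 1.17.1). A chi-square test of 12 pairs of libraries of the same operation and sex gave 40.9 to 669 per degree of freedom. None of these pairs were duplicates, and other pairs were not compared. Limits of 3 counts cover counting error only. Sequences were searched with BLAST 2.17.0+ at 95% identity. The tests were checked on simulated data.

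The members and lists were chosen with earlier results of these data known. Named genes are the members, their ratio partners, up to 2 genes per list and direction with the lowest p, and the gene most like each member. Pfkm, Pfkp, Gapdh, Pdk2, Egln1, Vhl and the other Pfkfb genes were named after their values were seen. Some genes counted in the lists are not reported here by name. The respiratory list holds 94 names, of which 14 are older spellings of genes also listed. Alternatives were DESeq2 1.42.0, the exact test of edgeR, other scalings and filters, unrounded counts, sex as a covariate, a block by replicate number, no ribosomal RNA genes, and libraries left out. Of these, the sets 16, 19 and 22 and 19 and 23 were chosen after values were seen.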

Additional observations from a re-analysis of the deposited data

Results flagged for a closer look

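Among 30 groups of 6 libraries searched for a library far from the others (Dixon's test), 2 held one, and chance gives about 1 in 20. Pgk1 in AVF sample 09 was at 145 normalized CPM, against 118 to 126 in the other 5 AVF libraries, and this library also held hepatocyte markers at 7694. Slc16a3 in AVF sample 05 was at 4.76, against 1.92 to 2.57, and this library held hepatocyte markers at 2577.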

How the results depend on the processing

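The 759 DEG became 471, 280 and 435 without samples 05 and 09, without samples 16, 19 and 22, and without samples 19 and 23, and 470 to 1023 with each library left out. The 2190 genes past the adjusted test became 1230, 499 and 1002 in the same order, 3402 in DESeq2, 1319 with total counts, and 1330 to 2546 with each library left out. The 5 members lower became 0 in all 3 of those sets and 1 to 6 with each library left out. Over the pathway lists together, 77 lower genes became 132 in DESeq2, 120 in the exact test, 51 without a filter, 28, 3 and 8 in those sets, and 20 to 115 with each library left out. The 77 is smaller than the counts of the single lists added up. Signs turned for Ldha (0.22 without samples 16, 19 and 22), Eno3 (0.34 without samples 19 and 23) and Slc16a3 (-0.10 without samples 05 and 09, -0.08 to 0.36 with each library left out). They also turned for Hk1 in the interaction (-0.01 with no filter, -0.18 to 0.15) and, between female and male AVF, for Pfkfb3 (-0.23 without samples 05 and 09, -0.27 to 0.34), Aldoa (0.02 with the block, -0.17 to 0.18), Eno1 (-0.29 to 0.13), Hk1 (-0.11 to 0.24), Hk2 (-0.46 to 0.04), Ldha (-0.39 to 0.18) and Pkm (-0.09 to 0.03), none of which passed. Among the ratios, the difference in Eno1 to Eno3 ran from -0.49 to 0.63 with each library left out and was -0.75 without samples 19 and 23. Without samples 16, 19 and 22, Hk2 to Hk1 turned to 0.20, Slc2a1 to Slc2a4 turned to -0.31, and Ldha to Ldhb stayed at 1.09 but missed (adjusted p = 0.119). The causes were not tested.

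AVF and sham mice of the same sex and the same replicate number in the sample titles shared only that number. They were samples 04 and 16, 05 and 17, 06 and 18, 07 and 19, 09 and 22, and 11 and 23. Their deviations from the group means correlated by 0.257, 0.0428, 0.194, -0.206, -0.052 and 0.151. With that block, 6 members were lower (Eno1 added, adjusted p = 0.0394), where 1980 of 15912 genes passed in either direction. For the ratio of Ldha to Ldhb the difference stayed at 1.09 with an adjusted p of 0.0781 over sign flips of 6 pairs, which can give no p below 0.0312.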
